A study of Mus musculus with 12 samples.

Results

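The cerebellum of fxSCA7 92Q mice was compared with that of wild-type littermates at 29 weeks of age. The 92Q animals carry 92 CAG repeats and are a model of spinocerebellar ataxia type 7, an inherited ataxia caused by a lengthened glutamine tract. Each of the 2 groups had 3 sequencing libraries of total RNA, each from a pool of 3 mice, so 6 of the 12 libraries of the series bear on this comparison. The other 6 are the same genotypes at 12 weeks. The labels do not state which promoter and cell types drive the expanded allele. The deposited table holds 1 value per gene and condition, a normalized score without a stated unit. Every difference below is therefore a description of 1 value against another, with no replicate check and no p-value, and levels are not compared between genes.

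Genes entered the comparison when their score was 5 or more in at least 1 of the 2 conditions, which held for 7666 of the 7667 named genes in the table. Ratios are log2((92Q + 1)/(wild type + 1)). Pairs of scores below give 92Q first and wild type second, and a number in parentheses after a pair is its log2 ratio. Most values below concern the 7223 genes that reached 10 or more in both conditions. Every gene row of the table reached 10 in at least 1 of the 4 conditions, so a gene that is low in one genotype can be present only because it is high in the other. The rule of 10 in both removes that link with direction, at the price of genes with large differences near the lower end of the scale. It set aside 443 genes.

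Purkinje cells are the output neurons of the cerebellar cortex. Glutamate from parallel fibres acts on them through AMPA-type and metabotropic receptors. The metabotropic kind couples to phospholipase C, whose product inositol trisphosphate opens the receptor ITPR1 and releases calcium from the endoplasmic reticulum. Microglia are the resident phagocytes of the brain and make the C1q proteins that start the classical complement cascade. In bulk tissue, fewer cells of a type and less RNA per cell cannot be told apart.

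At 29 weeks 40 of the 7223 genes (0.554%) had a score at least 1.5-fold lower in 92Q than in wild type. A score at least 1.5-fold higher was found for 19 genes (0.263%). The lowest ratios belonged to small nucleolar RNAs, Xist and immediate early genes, followed by Gng13, the first of 13 genes among the 40 that were on the Purkinje marker list. Of the 19 higher genes, 13 were on lists of microglial, complement or lysosomal protease genes. The microglia, microglial disease, complement and lysosomal protease lists hold 9, 20, 8 and 28 of the 7223 genes, with overlap. All lists were chosen with earlier results of these data known. Another 4 higher genes (Ttr, Enpp2, Igf2 and Igfbp2) were on lists of choroid plexus or meningeal genes. A 2-fold difference was reached by 6 lower and 9 higher genes. With the wider rule of 5 or more in either condition, 56 genes (0.73%) were at least 1.5-fold lower and 41 (0.535%) higher. The wider rule added 22 higher and 16 lower genes. Of its 41 higher genes 19 reached 10 in no condition but 92Q at 29 weeks, and of its 56 lower genes 4 reached 10 in none but wild type at 29 weeks.

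**Figure D1:**
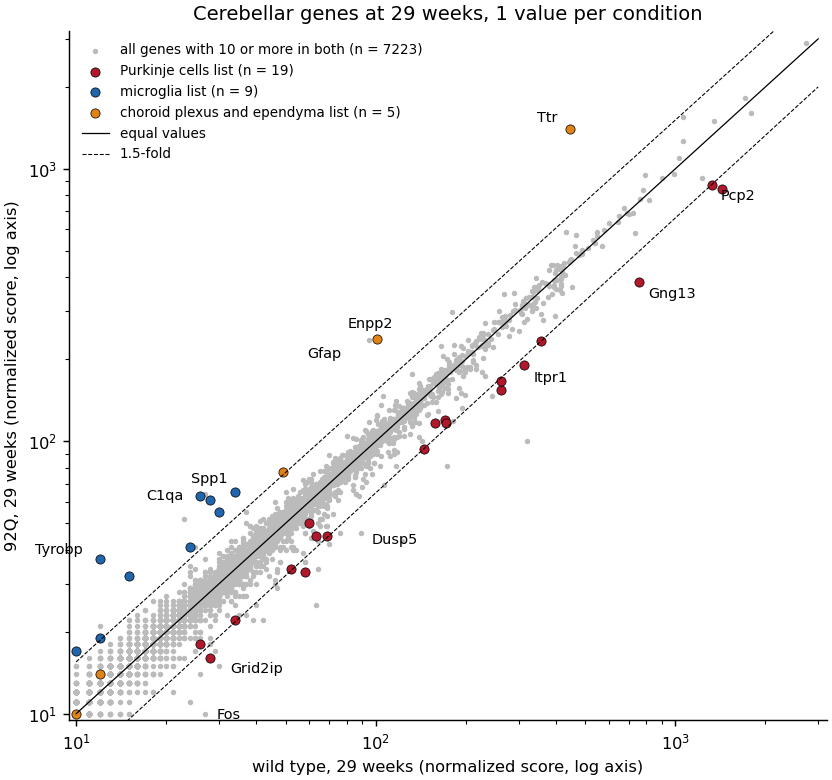
Normalized score of each gene in wild type (horizontal, log axis) and 92Q (vertical, log axis) at 29 weeks, for the 7223 genes with 10 or more in both; colours mark the marker lists of Purkinje cells, microglia and choroid plexus. All 19 Purkinje markers lie below the line of equal values, and all 9 microglial markers lie above the upper 1.5-fold line.

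The bulk of the transcriptome lay close to the diagonal. The ratio had a median of 0 and an SD over genes of 0.15, and 80.5% of genes were within 1.1-fold. Small differences leaned upwards in 92Q: 48.9% of genes were higher by any amount, 26.1% lower and 25.0% equal. That split depends on ties of whole numbers, since scaling by the median ratio gave 47.3% higher and 52.7% lower, and equal column sums gave 48.6% and 51.4%. The counts past 1.5-fold moved by at most 1 gene under these scalings. Among the 572 genes with a mean score of 100 or more, 12 were at least 1.5-fold lower and 4 higher. Among the 921 genes with a mean of 50 to 100 the counts were 6 and 1, and among the 2778 with 20 to 50 they were 19 and 10. Among the 2952 genes with a mean of 10 to 20 the counts were 3 and 4. The rule of 10 in both caps the ratio possible in that last range, so its counts cannot be set against the others. The 40 lower genes together held 2.23% of the summed score in wild type and 1.28% in 92Q.

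Some features of the samples bear on all these values. One of the 3 libraries of 92Q has a number in its label that is far from the run of numbers of the remaining 5, and what it adds to the 92Q score cannot be told apart. Xist, the transcript of the inactive X chromosome, had a score of 25 in 92Q and 63 in wild type. The Y-linked genes Eif2s3y (15 against 6) and Ddx3y (11 against 5) went the other way. The labels do not give the sex of the pooled animals, and sex and genotype cannot be told apart in these pools. Markers of choroid plexus, which lies outside the cerebellar cortex, also differed and are described with the higher genes.

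The Purkinje marker list showed a difference of one direction. Of its 20 genes 19 had a row, all reached 10 in both conditions, and all 19 were lower in 92Q, 13 of them by 1.5-fold or more. Their median ratio was -0.61, against 0 over all genes, and their summed score was 3555 in 92Q and 5745 in wild type. Among the members that stayed within 1.5-fold were Ppp1r17, with 120 and 171 (-0.51), and Dner, a Notch ligand of Purkinje cells, with 117 and 158 (-0.43). At 12 weeks 18 of the 19 were lower in 92Q, beside 37.0% of all genes, with a median of -0.26. This list was compiled with earlier results of these data known, and its direction is not independent evidence.

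Among the heterotrimeric G proteins, the switches between receptors and their effectors, one gene stood apart. Gng13, a gamma subunit, had 386 in 92Q and 759 in wild type (-0.97). The other 6 gamma subunit genes measured were all slightly higher in 92Q, with ratios from 0.07 to 0.26. Gng10, the one with the largest ratio of these, had 23 and 19. Of all 22 subunit genes 16 were higher and 5 lower, with a median of 0.09, and only Gng13 passed 1.5-fold. Gnao1, which encodes the neuronal alpha subunit Go, had 243 and 279 (-0.20).

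Regulators of G protein signalling (RGS proteins) speed up the inactivation of alpha subunits. Rgs8, a Purkinje-enriched member, had 154 in 92Q and 262 in wild type (-0.76). Its relative Rgs10 was not lower, at 25 and 22. The RGS binding protein gene Rgs7bp had 91 and 110. Over the 7 RGS list genes with 10 in both, 4 were lower and 2 higher, and the median was -0.07.

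Downstream of phospholipase C, enzymes that handle inositol phosphates and diacylglycerol were lower in single members rather than as whole classes. Itpka, a kinase that phosphorylates inositol trisphosphate, had 16 in 92Q and 28 in wild type (-0.77). Inpp5a, a phosphatase that removes a phosphate from the same messenger, had 119 and 181 (-0.60). These were the only 2 of 26 inositol phosphate genes past 1.5-fold, and the median of the 26 was 0. In the list of phospholipase C, diacylglycerol and protein kinase C genes, 12 of 23 were lower and 8 higher. Its one gene past 1.5-fold was Dagla, at 23 and 35, which makes the endocannabinoid 2-arachidonoylglycerol, while Mgll, which degrades it, had 48 and 46. Dgkz, a diacylglycerol kinase, had 132 and 194 (-0.55). Plcb3 had 10 and 15.

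Calcium stores and buffers showed the same unevenness. Itpr1, the calcium release channel, had 190 in 92Q and 313 in wild type (-0.72). The endoplasmic reticulum calcium pump gene Atp2a3 had 42 and 70 (-0.72), and its widely expressed relative Atp2a2 had 174 and 232 (-0.41). The plasma membrane pump Atp2b2 had 129 and 162 (-0.33), while Atp2b1 had 32 in both. Of 21 genes for calcium release and pumps 9 were lower, 5 higher and 7 equal. Among 35 genes of calcium-binding proteins and calmodulin kinases, 18 were lower and 13 higher. The calmodulin regulator Pcp4 had the lowest ratio of these, with 843 and 1432 (-0.76). Calb1, which encodes the buffer calbindin, had 233 and 356 (-0.61), and Hpcal1, a neuronal calcium sensor, had 104 and 139 (-0.42). Among the higher members were S100a1, at 136 and 104, and Pcp4l1, a Pcp4 relative, at 110 and 92.

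The postsynaptic density of the parallel fibre synapse holds glutamate receptors, scaffolds and AMPA receptor partners. Grid2ip, a postsynaptic scaffold, had 15 in 92Q and 30 in wild type (-0.95), the largest difference of the glutamate receptor list. Cbln1, a synaptic organiser that granule cells secrete, had 373 and 414, within 1.5-fold. Shisa6, an AMPA receptor partner, had 30 and 46 (-0.60). In the list of ionotropic receptors and auxiliary subunits 18 of 28 were lower and 7 higher, with a median of -0.09.

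Scaffolds of the metabotropic receptor were also lower. Shank2, a master scaffold of excitatory synapses, had 36 and 58 (-0.67), and it was one of the genes with little difference at 12 weeks, at 52 and 54. Homer3, which links metabotropic receptors to calcium stores, had 94 and 145 (-0.62). They were among the 3 members past 1.5-fold of 25 genes of metabotropic receptors and scaffolds, of which 17 were lower and 6 higher. Baiap2, an actin-linked scaffold, had 53 and 69.

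Inhibitory signalling genes leaned down by small amounts, 20 of 27 lower and 5 higher with a median of -0.07. The gene past 1.5-fold was Kctd12, an auxiliary subunit of GABA-B receptors, with 36 in 92Q and 58 in wild type (-0.67). Both subunits of that receptor were lower too, Gabbr2 at 64 and 86 (-0.42) and Gabbr1 at 179 and 226 (-0.33). Gad1, which makes GABA, had 144 and 185 (-0.36).

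Potassium channel genes formed a similar group, with 25 of 35 lower, 6 higher, none past 1.5-fold and a median of -0.07. Kcng4, a modifier subunit, had 54 and 72 (-0.41). Kcnip1 and Kcnip4, partners of A-type channels, had 32 and 44, and 71 and 93. Kcnk9, a leak channel, went the other way with 23 and 16 (0.50). Among sodium, calcium, HCN and TRP channels 15 of 34 were lower and 14 higher. Among the 2 members past 1.5-fold was Cacna1g, a low-threshold calcium channel, at 34 and 52 (-0.60).

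Other lower genes were not on the pathway lists described above, though Arhgef33 and Car8 are on the Purkinje list. Dusp5, a phosphatase of MAP kinases, had 46 in 92Q and 89 in wild type (-0.94). Fam107b had 34 and 64 (-0.89). Arhgef33, a guanine nucleotide exchange factor, had 33 and 58 (-0.80). Sbk1, a kinase, had 147 and 244 (-0.73), and Stk17b, another kinase, had 17 and 29 (-0.74). Car7 and Car8, members of the carbonic anhydrase family, had 29 and 47, and 167 and 263. Doc2b, a calcium sensor of vesicle release, was the one gene past 1.5-fold of 51 synaptic vesicle genes, at 23 and 37 (-0.66). The vesicle list as a whole had 24 lower and 22 higher, with a median of 0.

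Transcription factors showed smaller differences, with no member of 29 past 1.5-fold, 16 lower and 12 higher. Lhx1, a factor of the Purkinje lineage, had 18 and 26 (-0.51), Bcl11a had 11 and 15 (-0.42) and Rora, a nuclear receptor needed for Purkinje development, had 50 and 64 (-0.35). Nfib, a factor of granule cells and glia, had 46 and 41. Secreted peptides were near balance, 13 of 28 lower and 10 higher. The peptide gene Cck had 81 and 117 (-0.53) and the receptor gene Crhr1, which binds corticotropin-releasing hormone, had 34 and 47 (-0.46).

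In some gene families 1 member stood apart from its relatives. In others all members went the same way, such as the 3 Kcnc genes, all lower, and the 3 metallothioneins, all higher. The families were formed from symbol stems after the values were seen, so these values are a description of chosen cases. Shank2 was lower by more than Shank1, at 81 and 103, and Shank3, at 65 and 70. Homer1 had 14 and 15 against the larger difference of Homer3. These relatives were set beside a gene chosen for passing 1.5-fold, so their place nearer to equal follows from that choice. Of 12 Kctd genes only Kctd12 passed 1.5-fold, and 6 of the 12 were higher in 92Q. Daglb had 16 and 15, Inpp5k had 27 and 25, and Clstn1, a calsyntenin, had 282 and 268 where Clstn2 had 12 and 21. Tuba8, an alpha tubulin, had 25 and 40, whereas Tuba1a, a member known from developing neurons, had 30 and 23. Slc1a6, the Purkinje glutamate transporter, had 45 and 69, and the glial transporters Slc1a3 and Slc1a2 had 323 and 361, and 202 and 190. In the Slc1a family 3 of 5 genes were higher. The cathepsins also went 1 way, since all 8 were higher and 3 passed 1.5-fold.

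**Figure D2:**
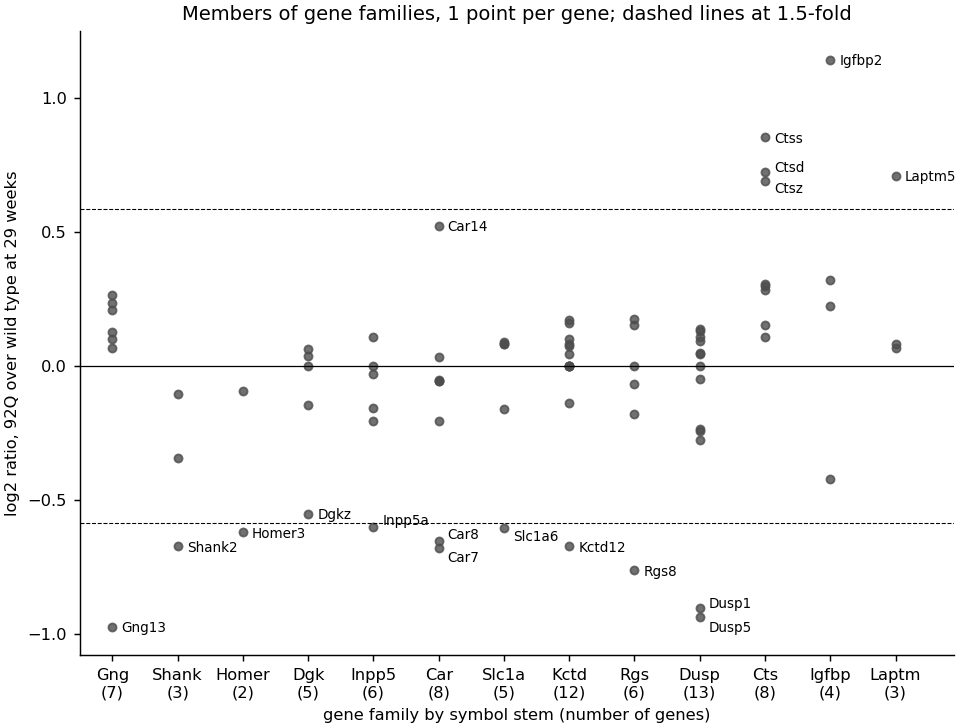
Log2 ratio of 92Q over wild type at 29 weeks (vertical) for members of 13 gene families (horizontal), 1 point per gene; dashed lines mark 1.5-fold. Gng13 lies at -0.97 while the other 6 Gng genes lie above 0, and all 8 cathepsin (Cts) genes lie above 0.

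Other neuron types of the cerebellum differed less than Purkinje cells on their marker lists. The 16 granule neuron markers included 10 lower and 4 higher genes, none past 1.5-fold, with a median of -0.08. Neurod1, a granule cell factor, had 281 and 319, and Calb2, which encodes calretinin, had 259 and 249. Of 10 interneuron markers 8 were lower and none higher, with a median of -0.14. That list includes Gad1, and Pvalb (580 and 734), which Purkinje cells also express. The cerebellar nuclei list had 5 of 7 markers higher and a median of 0.14. Nefm, a neurofilament subunit, had 76 and 62, and Slc17a6, the vesicular glutamate transporter of nuclear neurons, had 24 and 21. Spp1, also on that list, is described with the microglial genes below. Differences between lists were not tested.

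**Figure D3:**
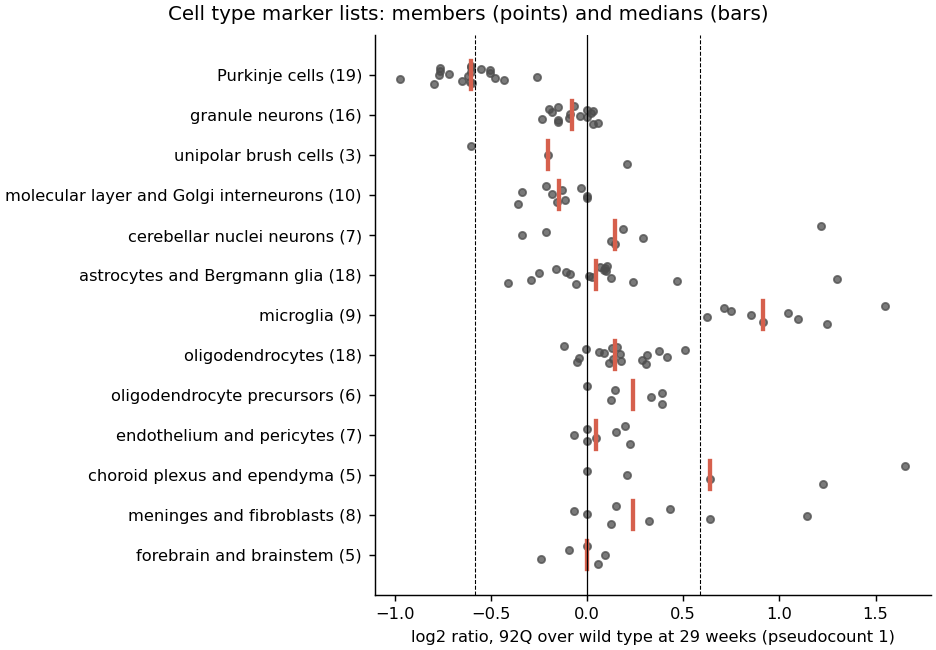
Log2 ratio of 92Q over wild type at 29 weeks (horizontal) for the members of each cell type marker list with 10 or more in both conditions; points are genes, bars are medians and the number of genes follows each name. The Purkinje list has a median of -0.61 and the microglia list one of 0.92, with the other neuron lists between -0.20 and 0.14.

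Immediate early genes, which neurons and glia transcribe within minutes of a stimulus, held 4 of the 40 lower genes. Fos, an AP-1 subunit, had 10 in 92Q and 27 in wild type (-1.35). The orphan receptor gene Nr4a1 had 11 and 24 (-1.06), and Dusp1, a nuclear phosphatase of MAP kinases, had 22 and 42 (-0.90). Dusp5 is the fourth. Of the 21 genes of the list 15 were lower and 5 higher, with a median of -0.11, close to the -0.10 at 12 weeks. Jun, the AP-1 partner of Fos, went the other way at 28 and 22, as did Jund at 87 and 73. Fos in 12-week wild type was 13, so the 27 at 29 weeks is the highest of its 4 values, while both 92Q values (8 and 10) were low.

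The promoters of these 4 genes are shown because the cyclic AMP response element, with the core TGACG, is the textbook element of this class. The sequences are parts of the 250 bases before a RefSeq start of each gene on GRCm38.p6. They are written in the direction of the gene, with matches on either strand in capitals. For Nr4a1 that start is not the first base of the gene, since its stretch lies inside the span chr15:101253902-101274795. Fos lies at chr12:85473741-85473848 on the plus strand, Nr4a1 at chr15:101266596-101266830 on the plus strand, Dusp1 at chr17:26508588-26508683 on the minus strand and Dusp5 at chr19:53529070-53529114 on the plus strand.
Fos: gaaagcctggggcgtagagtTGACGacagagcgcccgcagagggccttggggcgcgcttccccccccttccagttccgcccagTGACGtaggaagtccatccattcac
Nr4a1: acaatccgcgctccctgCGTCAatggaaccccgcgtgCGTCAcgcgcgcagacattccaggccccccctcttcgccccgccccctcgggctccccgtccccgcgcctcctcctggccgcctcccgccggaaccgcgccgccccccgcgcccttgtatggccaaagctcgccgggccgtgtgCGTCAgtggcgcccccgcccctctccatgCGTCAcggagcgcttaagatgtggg
Dusp1: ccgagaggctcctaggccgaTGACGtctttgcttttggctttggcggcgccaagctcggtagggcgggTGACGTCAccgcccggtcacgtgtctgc
Dusp5: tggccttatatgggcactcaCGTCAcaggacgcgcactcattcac
The stretches hold 2 matches in Fos, 4 in Nr4a1, 3 in Dusp1 and 1 in Dusp5, counting both strands. In Dusp1 a pair of them forms the full palindrome TGACGTCA. Of 5505 genes with a promoter window 29.2% hold TGACG and 3.20% hold TGACGTCA. Among the 40 lower genes 25 had a window and 11 of these hold TGACG. Windows were at hand for 76.2% of all genes compared and 62.5% of the lower ones, which is too few for a comparison of shares, and a match is a description of letters only.

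The 3 lowest transcripts by ratio included 2 short noncoding RNAs. AF357426 had 100 in 92Q and 321 in wild type (-1.67), and AF357399 had 43 and 122 (-1.48). AF357425 had 81 and 173 (-1.09). All 3 are annotated as small nucleolar RNAs, a class that guides modification of other RNAs, and scores of such short transcripts are uncertain. Their 12-week values ran differently: AF357426 was listed at 0 in 92Q against 309, while AF357399 had 75 against 29 and AF357425 had 171 against 83, both higher in 92Q. AF357426 (chr12:109642838-109642904) and AF357425 (chr12:109636012-109636080, both GRCm38.p6) lie in the imprinted region that also holds the long noncoding RNAs Meg3 and Rian. Meg3 had 396 and 344 and Rian had 34 and 30, both slightly higher in 92Q.

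Microglial genes were higher as a list. Of 23 markers 15 had a row and 9 reached 10 in both conditions, and these 9 were all at least 1.5-fold higher, with a median of 0.92 and a summed score of 390 in 92Q and 191 in wild type. At 12 weeks the sum was 163 in both genotypes. Tyrobp, the signalling adaptor of TREM2, had 37 and 12 (1.55). Its fellow adaptor Fcer1g, the Fc receptor gamma chain, had 32 and 15 (1.04). Laptm5, a lysosomal membrane protein of blood-lineage cells, had 17 and 10, and Csf1r, the growth factor receptor on which microglia depend, had 19 and 12 (0.62). The other 6 rows missed 10 in wild type, among them Cx3cr1 at 13 and 9. The markers P2ry12, Tmem119, Siglech and Gpr34 were among the 8 with no row.

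C1q is a hexamer of trimers, each built from the A, B and C chains, and all 3 genes were higher. C1qa had 63 in 92Q and 26 in wild type (1.25), C1qc had 61 and 28 and C1qb had 65 and 34 (0.92). Their 12-week values were 23 and 25, 25 and 25, and 28 and 28, so the genotypes differed by 2 or less at that age. In the complement and Fc receptor list 7 of 8 genes were higher. Clu, a secreted inhibitor of the terminal complement complex, had 572 and 468, Serping1, the C1 inhibitor, had 20 and 17, and the single lower gene was Cfp, properdin, at 17 and 20.

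Lists of microglial genes in disease and at rest both leaned up, by unequal amounts. Of the genes raised in disease 20 had 10 in both conditions, all 20 were higher and 6 passed 1.5-fold, with a median of 0.28. Spp1, osteopontin, had 64 and 27 (1.22), Lgals3bp had 21 and 12 (0.76) and Apoe, the lipid carrier of glia, had 1552 and 1062 (0.55). Cd9, a tetraspanin, had 35 and 24, and Grn, progranulin, had 34 and 25. Several of these genes are made by other cells, Spp1 by nuclear neurons and Apoe by astrocytes. Of 11 homeostatic genes 9 were higher, 1 passed 1.5-fold (Csf1r) and the median was 0.13. Olfml3 had 15 and 10 (0.54).

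Lysosomal enzymes were higher almost throughout, 26 of 28 with a median of 0.16, and 4 passed 1.5-fold. Ctss, a cathepsin of phagocytes, had 55 in 92Q and 30 in wild type (0.85). Ctsd, an aspartic protease, had 298 and 180 (0.72) and Ctsz had 41 and 25 (0.69). Other cathepsins were within 1.5-fold, such as Ctsb at 177 and 159 and Ctsf at 40 and 37. The one lower gene was Ppt2, at 33 and 39. Lysosomal membrane proteins and proton pump subunits were near balance in size, with 23 of 36 higher and a median of 0.06. Laptm4a and Laptm4b, relatives of Laptm5, had 106 and 100, and 42 and 40.

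Antigen presentation and interferon genes differed little. Of 11 MHC class I and processing genes 9 were higher, with a median of 0.20 and none past 1.5-fold. With 20 or more in both conditions that median was 0.03. H2-D1 had 39 and 40. Of 11 interferon response genes 7 were higher, led by Ifi27 at 22 and 16 (0.44). Markers of cells from outside the tissue were scarce. Of 12 border macrophage markers only Lyz2 had a row (22 and 3), and of 16 lymphocyte and neutrophil markers only Cd52 had one (25 and 7). Those 2 fall outside the rule of 10 in both. The part of such cells in the higher genes was not tested.

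Promoter stretches of C1qb, C1qc, Ctss and Laptm5 are shown for the core GAGGAA on either strand, in capitals, the kind of site read by PU.1, the factor of the microglial lineage. They were the higher genes of the microglial list whose window holds it. The Laptm5 stretch lies inside the gene span chr4:130912890-130936148, so its RefSeq start is not the first base of that span. For C1qc too the start used lies inside the gene span, chr4:136889801-136892936, and is not its first base. C1qb lies at chr4:136886205-136886250 on the minus strand, C1qc at chr4:136893082-136893127 on the minus strand, Ctss at chr3:95526602-95526647 on the plus strand and Laptm5 at chr4:130913258-130913303 on the plus strand, all on GRCm38.p6 from RefSeq.
C1qb: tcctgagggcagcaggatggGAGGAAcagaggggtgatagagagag
C1qc: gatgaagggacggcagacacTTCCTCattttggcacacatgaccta
Ctss: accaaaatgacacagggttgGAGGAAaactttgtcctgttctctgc
Laptm5: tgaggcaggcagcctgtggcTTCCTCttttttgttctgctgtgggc
The core GAGGAA is found in 20.8% of the 5505 windows and the longer form GAGGAAGT in 1.78%. Only 13 of the 19 higher genes (68.4%) had a window, too few for a comparison of shares. Of these 13, GAGGAA is held by 5, GAGGAAGT by 2 and the nuclear receptor site AGGTCA, found in 9.46% of all windows, by 5.

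Astrocyte markers did not move together. Gfap, the intermediate filament of reactive astrocytes, had 235 in 92Q and 95 in wild type, with 87 and 88 at 12 weeks. Of the 18 astrocyte and Bergmann glia markers 11 were higher and 7 lower, only Gfap passed 1.5-fold, and the median was 0.05. Aqp4, the water channel of astrocyte endfeet, had 164 and 139 (0.24). Aldoc, known as zebrin II and expressed by both astrocytes and a subset of Purkinje cells, had 924 and 1227 (-0.41), and Gdf10, a Bergmann glia factor, had 106 and 130 (-0.29). Of 9 reactive astrocyte genes 8 were higher, with a median of 0.23. Lgals1, galectin-1, had 26 and 20, and S100a10 had 40 and 32.

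Oligodendrocyte lineage genes were higher by small amounts. Of 18 oligodendrocyte markers 14 were higher and 4 lower, none past 1.5-fold, with a median of 0.15. At 12 weeks 16 of the 18 were lower, beside 37.0% of all genes, and their median was -0.07. Opalin had 26 and 18 (0.51), Gsn, gelsolin, had 27 and 20 (0.42), and Mog, a myelin surface protein, had 60 and 46 (0.38). Of 6 precursor markers 5 were higher. Bcas1, a marker of newly forming oligodendrocytes, had 105 and 80 (0.39), and the lineage factor Olig1 had 72 and 57 (0.33).

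Some choroid plexus and meningeal markers were the other genes with high ratios. Ttr, transthyretin, had 1403 in 92Q and 445 in wild type (1.65), and Enpp2, autotaxin, which oligodendrocytes also make, had 238 and 101 (1.23). Igfbp2, an IGF binding protein, had 52 and 23 (1.14) and Igf2 had 77 and 49 (0.64). Of the 5 of 18 choroid plexus markers with 10 in both, 4 were higher and 1 equal, with a median of 0.64. Otx2 had 14 and 12, and Rarres2 had 10 in both. The summed score of the 5 was 1742 and 617, mostly from Ttr. At 12 weeks the sum ran the other way, with 117 in 92Q and 501 in wild type, and Ttr alone had 6 and 336. Another 5 choroid plexus markers have a row only because 92Q at 29 weeks reached 10, which fixed their direction. Of 8 meningeal markers 6 were higher, 1 equal and 1 lower, with a median of 0.24. Ptgds, a prostaglandin synthase, had 1499 and 1349, Dcn, decorin, had 23 and 21, and Mgp had 41 and 43. The labels give no detail of the dissection, and the part of choroid plexus tissue in these 4 genes was not tested. Without the short RNAs, Xist and the choroid plexus and meningeal list genes, 36 genes were at least 1.5-fold lower and 15 higher.

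Small upward differences ran through several housekeeping lists, none with a gene past 1.5-fold. Of 69 nuclear respiratory chain genes 59 were higher and 7 lower, with a median of 0.10, whereas 63 were lower at 12 weeks with a median of -0.11. Of 78 cytosolic ribosomal protein genes named only 19 had a row, so the values cover a part of the class. Of the 18 with 10 in both 16 were higher, with a median of 0.11, against -0.10 at 12 weeks. With each value moved by 0.5 toward no difference that 29-week median was 0.06. Proteasome and ubiquitin genes had 34 of 44 higher, led by Uchl1, a neuronal deubiquitinase, at 176 and 132 (0.41). Metallothionein, iron and redox genes had 26 of 35 higher. The metallothioneins Mt2, Mt1 and Mt3 had 586 and 431, 1266 and 1065, and 521 and 463. Over all 7223 genes 48.9% were higher and the median was 0.

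Several stress and repeat-disease lists had medians of 0 or near it. Heat shock genes had 16 of 33 higher and 11 lower, with Hspb8, a small chaperone, at 25 and 19 and Bag3, its partner, at 19 and 23. Endoplasmic reticulum stress genes had 8 of 31 higher and 13 lower. The subunits of SAGA and TFIID, complexes of transcription, had 12 of 25 higher, 2 lower and 11 equal, with a median of 0. Genes of other hereditary ataxias had 21 of 33 lower and 7 higher, with a median of -0.06. The 4 past 1.5-fold, among them Itpr1, Car8 and Cacna1g, are also on the Purkinje list. Among circadian clock genes 15 of 21 were lower and 4 higher. Per2 had 16 and 22 (-0.44), while Cirbp, a cold-inducible RNA-binding protein, had 55 and 37 (0.56).

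The 12-week values of the 29-week genes share no library with the 29-week ratios. Of the 40 lower genes 37 were lower at 12 weeks, 2 were higher and 1 was equal, beside 37.0% of all 7223 genes lower at that age. Their median ratio was -0.27 at 12 weeks and -0.73 at 29 weeks. Only 3 of the 40 were at least 1.5-fold lower at 12 weeks, beside 7 of all 7223 genes. These 3 were AF357426 (0 and 309), Xist (30 and 66) and Fos (8 and 13). As Xist differed at 12 weeks too, sex and genotype cannot be told apart at that age either. For 39 of the 40 the ratio was further below 0 at 29 weeks, though these genes were chosen for a low 29-week value. Of the 19 higher genes 3 were higher at 12 weeks, beside 32.7% of all 7223 genes, while 8 were lower and 8 equal. Their median ratio was 0 at 12 weeks and 0.92 at 29 weeks. At 12 weeks 2 of the 19, Ttr (6 and 336) and Enpp2 (45 and 92), were at least 1.5-fold lower, beside 7 of all 7223 genes. Grid2ip had 24 and 30 at 12 weeks and Gng13 had 641 and 935, both lower in 92Q already. Clstn2, with 17 in both, had no difference at that age.

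**Figure D4:**
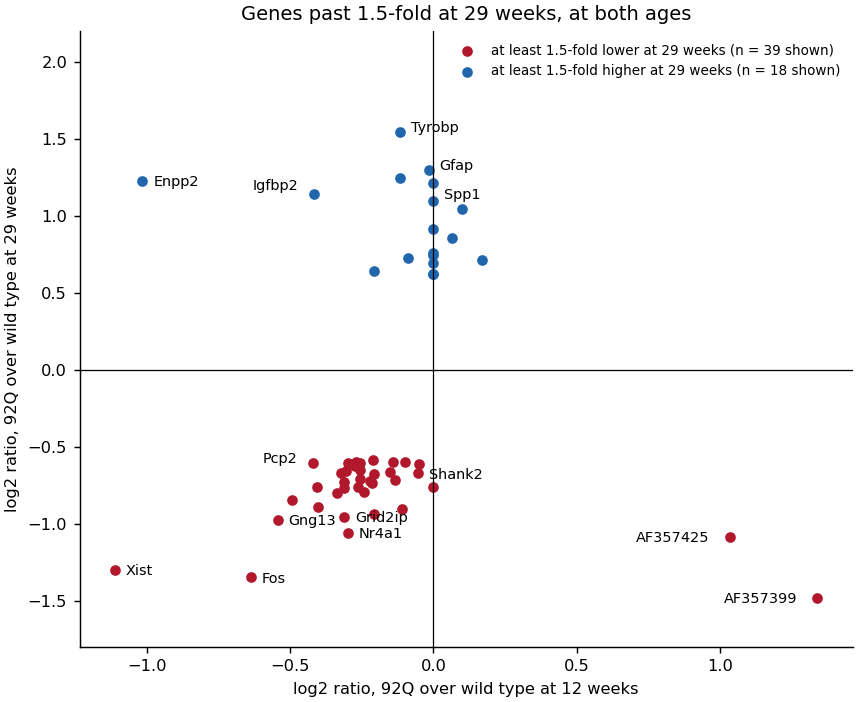
Log2 ratio of 92Q over wild type at 12 weeks (horizontal) and 29 weeks (vertical), 1 point per gene, for 39 of the 40 lower and 18 of the 19 higher genes; AF357426 and Ttr, at 12-week ratios beyond the axis, are not drawn. Most lower genes lie to the left of 0, while most higher genes lie at or near 0 at 12 weeks.

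**Figure D5:**
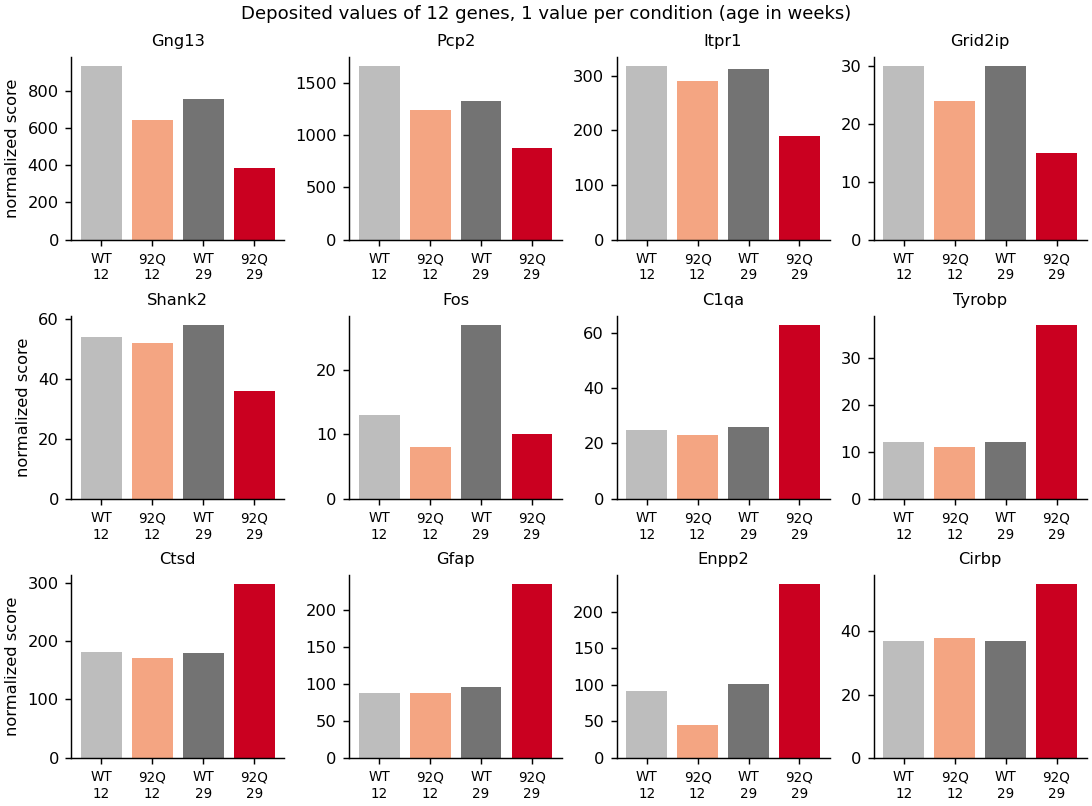
Normalized score (vertical, from 0) of 12 genes in the 4 conditions (horizontal), 1 bar per condition and no error bars because each condition has 1 deposited value. Gng13 and Pcp2 are lower in 92Q at both ages, while C1qa, Tyrobp, Ctsd and Gfap are near equal at 12 weeks and higher in 92Q at 29 weeks.

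The threshold and the rule of 10 each had genes on their edges. Dagla, at -0.58, was the last gene inside 1.5-fold on the lower side, and Atl2 (43 and 64), Prmt8 (31 and 46) and Dgkz (132 and 194) were the next outside. On the higher side Csf1r and Cd82 (19 and 12 each) were the last inside, and Cirbp and Apoe were the next outside. Fos at 10 in 92Q and Laptm5 at 10 in wild type were just inside the rule of 10. Just outside it were Cd52 (25 and 7), Ly86, a microglial surface protein (16 and 8), Nr4a2, a relative of Nr4a1 (8 and 18), and Spry4, a MAP kinase inhibitor (9 and 14). Scores are whole numbers, and with each value moved by 0.5 toward no difference 34 genes stayed at least 1.5-fold lower and 17 higher. The authors' deposited table of 99 genes holds 37 of the 40 lower genes and 10 of the 19 higher genes. It holds the same 4 conditions of the same data, so this overlap is not independent evidence.

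Gene structure gave a further description of the 2 groups. The lower genes spanned a median of 26.6 kb from first to last base in RefSeq on GRCm38.p6, close to the 25.7 kb over the 6840 genes with a span. The 19 higher genes spanned a median of 11.5 kb. The lower group held 35 protein-coding genes, 3 small nucleolar RNAs and 2 long noncoding RNAs on 20 chromosomes. The higher group was all protein-coding and lay on 10 chromosomes. The 6840 genes with a span held 6768 protein-coding genes, 3 small nucleolar RNAs and 55 long noncoding RNAs, on 20 chromosomes. A smaller group can lie on fewer chromosomes by its size alone.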

How the data were processed

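Total RNA of cerebellum was sequenced as single-end reads of 50 bases, per the labels' protocols. The submitters' processing notes name Bowtie 0.12.7, SAMtools 0.1.12a, Cuffdiff 1.3.0 and mm10, with no role or order. Annotation, filters and normalization are not stated there. The authors deposited a score that appears normalized and rounded, with 1 value for each condition and no unit. The libraries were thus already combined, their depth is unknown and no test, interval or limma fit was possible. Row names that are bare numbers (17 of 7684) were left out.

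Ratios used a pseudocount of 1 and a threshold of 1.5-fold. The members and the 62 gene lists (16 of cell types, 46 of pathways) were chosen with earlier results of these data known. Named genes were the 15 largest ratios in each direction, the 4 largest ratios in each list with up to 2 of opposite sign, 10 genes listed by name, and genes at the edges of the rules. Further genes past 1.5-fold and paralogues were chosen after their values were seen. List genes were matched by exact symbol, so joined names did not match. Gene spans and promoters came from RefSeq tables on GRCm38.p6. Calculations used Python 3.11.15, pandas 2.3.3, numpy 2.4.6 and matplotlib 3.10.9, and were tested on simulated data. Some genes are not reported here. Alternatives were pseudocounts, minimum values, scalings, rounding and the fold threshold.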

Additional observations from a re-analysis of the deposited data

Results flagged for a closer look

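For 4 genes past 1.5-fold at 29 weeks the genotype ratio had the opposite sign at 12 weeks by a wide margin. The log2 ratio at 29 weeks less that at 12 weeks was -2.82 for AF357399, -2.12 for AF357425, 2.24 for Enpp2 and 7.24 for Ttr. The first 2 are small nucleolar RNAs, higher in 92Q at 12 weeks and lower at 29 weeks. Enpp2 and Ttr are on the choroid plexus list, and both were lower in 92Q at 12 weeks and higher at 29 weeks. With 1 value per condition these differences between ages were not tested.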

How the results depend on the processing

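With pseudocounts of 0.1 and 5, scalings by upper quartile, median ratio, equal sums or mean centring, a minimum of 20 in both conditions, rounding, or removal of the short RNAs, Xist and choroid plexus and meningeal genes, the count of genes at least 1.5-fold lower stayed between 32 and 41 (40 as reported) and that of higher genes between 13 and 19 (19 as reported). A minimum of 5 in either condition gave 41 higher genes and 56 lower. A 2-fold threshold gave 9 higher and 6 lower. The minimum of 5 in either added 443 genes, and 22 of these were at least 1.5-fold higher. Of the 41 higher genes 19 reached 10 in no condition but 92Q at 29 weeks, so their presence and their direction are linked. Over 34 named genes and 297 values under these settings no ratio changed sign, and 1 value fell under 1.5-fold. Over 59 lists and 533 medians 2 changed sign, both from medians near 0: IGF, TGF beta, BMP and WNT signalling went from 0.03 to -0.05 with 20 or more in both conditions, and extracellular matrix from 0.03 to -0.0021 with median ratio scaling. The MHC class I median went from 0.20 to 0.03 with 20 or more in both, and the SAGA and TFIID median moved from 0 to 0.08 under one setting, 20 or more in both columns. Scalings that break ties changed the share of genes lower by any amount from 26.1% to between 51.4% and 52.7%. No paired analysis was possible because each condition has a single deposited value. Single libraries could not be left out for the same reason. The depth behind each score is unknown, so no limit of detection can be given.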
